A study of Homo sapiens with 15 samples.

Results

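The second of a pair of siRNAs against ATRNL1, siRNA-2, was set against a scramble siRNA across all genes in human atrial cardiomyocytes. Both arms were chosen by the treatment named in the labels, which gave 3 siRNA-2 and 3 scramble libraries out of 15 in the series, and 24659 genes passed the filter on low counts. ATRNL1, attractin-like 1, is a large single-pass membrane protein with EGF-like, CUB, kelch and C-type lectin domains on its outer side. Its paralog ATRN, attractin, acts in mice in the pigment pathway of agouti and the melanocortin receptors together with the ubiquitin ligase MGRN1 (mahogunin). The study asked which cellular and molecular features go with ATRNL1 in atrial muscle cells.

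All groups used here shared 1 starting line and 1 protocol. The cells were H7, an established human embryonic stem cell line of wild-type genotype, grown as spheroids, given retinoids to make atrial muscle and dissociated on day 17. The siRNA-2 group received the second siRNA against ATRNL1, the siRNA-1 group the first one, and the scramble group a control siRNA, with 3 libraries in each. The remaining 6 libraries came from cells given a lentivirus and entered only the low-count filter, the scaling and the shared estimate of the spread. The sources used here give no dose, length of treatment or harvest day. Total RNA was depleted of ribosomal RNA per the protocol in the labels, while another label field calls the molecule polyA RNA. The cells come from a single line and a single differentiation scheme, and the labels do not tie libraries of a group to separate cultures. In the siRNA-2, siRNA-1 and lentivirus groups the number in 1 title combines the digits of those in the other 2, and no source used here says whether that library is a pool of the others. If a library were a pool, a group would hold 2 independent samples in place of 3, and its SDs and p-values would be too small. The p-values below therefore reflect no more than the spread among these libraries, which may be technical.

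The libraries held 48345838 to 67006175 gene counts in siRNA-2, 37078568 to 50972753 in siRNA-1 and 44584366 to 107062380 in scramble. The 3 scramble libraries differed among themselves more than the siRNA-2 libraries did. The typical SD of log2 CPM (counts-per-million values) among libraries of a group was 0.0753 in siRNA-2, 0.0788 in siRNA-1 and 0.130 in scramble. Scramble library 3 lay between the other 2 scramble libraries for 68.3% of the 14012 genes compared, and its counts were closest to a mixture with a share of 0.51 from 1 of them, although they differed from that mixture beyond counting noise (chi-square per degree of freedom 2.68). On the second principal component of the 6 libraries scramble libraries 1, 2 and 3 sat at 51.0, -39.4 and -4.87. For that reason each result below was also computed with each scramble library as the sole control. A gene that was called in the same direction in all 3 of these fits is said to hold against each scramble library. Defining markers of cardiomyocytes were present at high levels in every library, with summed levels of 42820 to 48080 CPM in siRNA-2 and 41020 to 51100 CPM in scramble.

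The siRNA-2 libraries held less ATRNL1 than any other library compared. ATRNL1 (ENSG00000107518, GRCh38 chr10:115093365-115948992, plus strand) had 4.93, 5.42 and 4.61 CPM in the siRNA-2 libraries, 10.2, 9.02 and 8.26 CPM in the siRNA-1 libraries, and 16.9, 13.8 and 15.3 CPM in the scramble libraries. The 3 groups did not overlap, and siRNA-2 was the lowest of them. The mean was 4.99 ± 0.406 CPM in siRNA-2 and 15.3 ± 1.52 CPM in scramble (SD, n = 3 each), a fall of 67.3%. The log2 fold change was -1.61 ± 0.12 (SE, adjusted p = 9.57e-10, edgeR quasi-likelihood test), and -1.75, -1.47 and -1.61 against scramble library 1, 2 or 3 alone. Relative to siRNA-1 the level was lower by a log2 difference of -0.87 (adjusted p = 2.61e-05). In bulk RNA, fewer cells with a transcript and less of the transcript per cell cannot be told apart, here and in every result below.

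The paralog ATRN fell as well. It stood at 100.3, 97.6 and 96.7 CPM in siRNA-2, at 119.9, 123.7 and 134.0 CPM in siRNA-1, and at 151.9, 157.7 and 156.4 CPM in scramble. The siRNA-2 values lay below all others, and the log2 fold change was -0.66 ± 0.07 (adjusted p = 1.17e-07). MGRN1, the ubiquitin ligase that acts with attractin in mice, stood at 52.96, 55.0 and 54.0 CPM in siRNA-2, at 70.5, 74.0 and 67.8 CPM in siRNA-1, and at 71.5, 77.6 and 73.8 CPM in scramble. Its log2 fold change was -0.46 (adjusted p = 7.64e-05), and it was lower in siRNA-2 than in siRNA-1 by -0.39 (adjusted p = 0.00109). The levels of siRNA-1 and scramble overlapped for MGRN1, and those of siRNA-2 lay apart. Of the 11 attractin family members and partners tested, 3 fell (ATRNL1, ATRN and MGRN1, all of which held against each scramble library), 1 rose (SMO, the hedgehog pathway's signal transducer, log2 fold change 0.39) and 7 were not called. MC4R, the melanocortin receptor of body weight control, was near the detection limit at 0.262 to 0.516 CPM in siRNA-2 and 0.281 to 0.456 CPM in scramble.

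**Figure D1:**
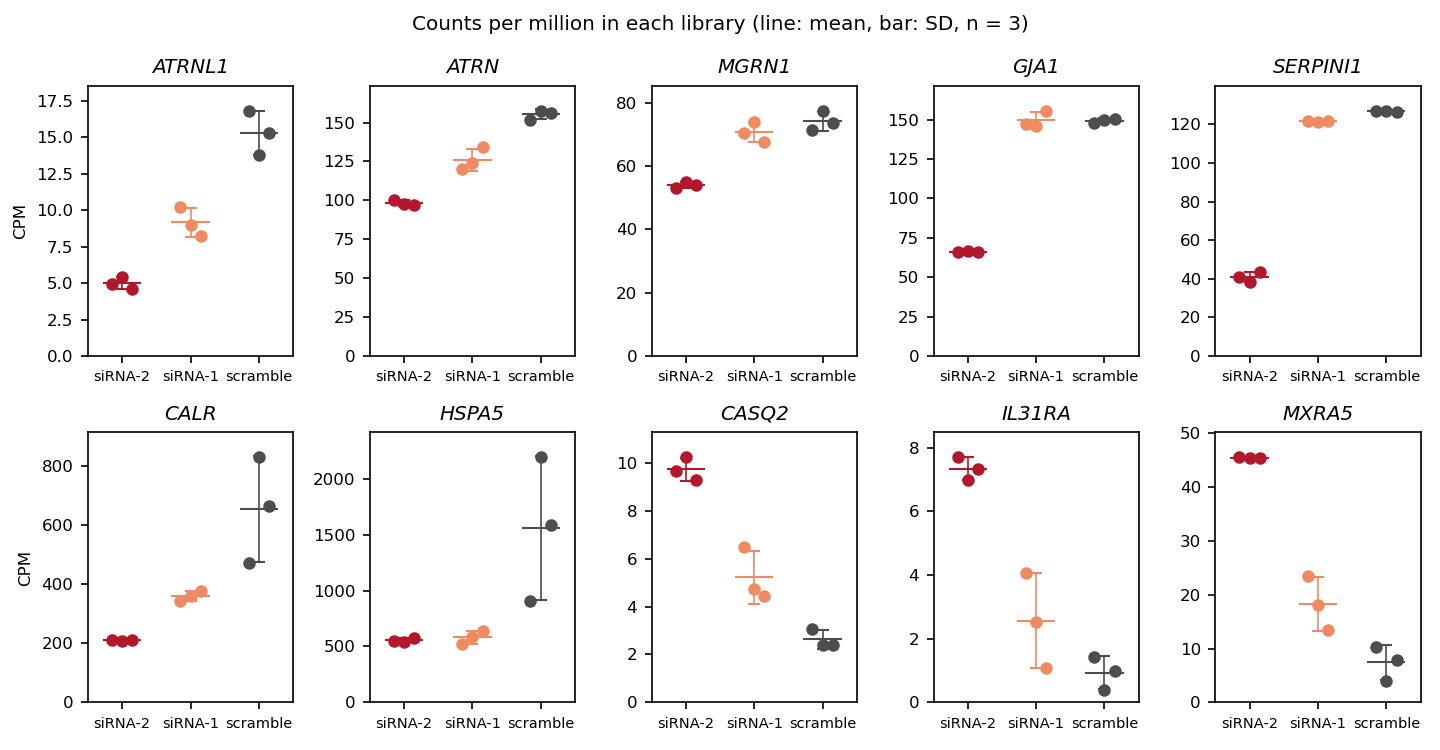
Level in CPM (vertical axes, from 0) of 10 genes in each library of siRNA-2, siRNA-1 and scramble, with a line at the mean and a bar for the SD (n = 3). ATRNL1 and ATRN are lowest in siRNA-2, next in siRNA-1 and highest in scramble, GJA1 and SERPINI1 are low in siRNA-2 only among these groups, and HSPA5 spreads widely among the scramble libraries.

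Across all genes, 2378 rose in siRNA-2 relative to scramble (9.64% of the 24659 tested) and 2092 fell (8.48%) at an adjusted p under 0.05. Those that held against each scramble library were 622 that rose (2.52%) and 497 that fell (2.02%). Without siRNA-2 library 2 and scramble library 3, which lay between the others of their group most often, 1258 genes rose and 965 fell. The siRNA-2 and scramble libraries did not overlap for 9049 genes (36.7%), among them 4274 of the 4470 called. Most changes were small: the median absolute log2 fold change of the called genes was 0.44, and 430 genes rose and 123 fell by at least 1 on the log2 scale. Protein-coding genes made up 2086 of those that rose and 1833 of those that fell, out of 15200 tested. Among the 9459 other genes, 292 rose and 259 fell. The median log2 fold change of all genes was 0.003. With scaling by library size alone that median was 0.07 and 70.1% of the calls were rises, against 53.2% with the scaling used here. Directions of small shifts in a whole list therefore rest on the scaling.

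The 15 genes that rose by the widest margin over all 3 scramble libraries had varied roles. IL31RA, a receptor subunit for interleukin 31, stood at 7.71, 6.98 and 7.33 CPM in siRNA-2, at 4.07, 2.53 and 1.09 CPM in siRNA-1, and at 1.41, 0.380 and 0.989 CPM in scramble. It was highest in siRNA-2 with no overlap, at a log2 fold change of 3.01 ± 0.29 (adjusted p = 4.4e-08). MXRA5, a secreted matrix-remodelling protein, stood at 45.6, 45.4 and 45.4 CPM in siRNA-2, at 23.5, 18.1 and 13.5 CPM in siRNA-1, and at 10.3, 4.05 and 7.90 CPM in scramble. The siRNA-2 libraries lay within a narrow band above all others, and the log2 fold change was 2.62 ± 0.20 (adjusted p = 1.2e-09). ADGRL4, an adhesion receptor best known from endothelium, stood at 3.98, 3.68 and 4.35 CPM in siRNA-2 and at 0.999, 0.347 and 0.668 CPM in scramble, a log2 fold change of 2.61. These 3 genes were also higher in siRNA-1 than in scramble, by 1.48, 1.31 and 1.44 on the log2 scale, and each was higher in siRNA-2 than in siRNA-1.

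Enzymes and a transporter were among them too. PADI2, which converts arginine to citrulline in proteins, stood at 40.4, 40.04 and 38.6 CPM in siRNA-2, at 36.1, 40.4 and 37.7 CPM in siRNA-1, and at 12.97, 6.91 and 9.68 CPM in scramble. Both siRNA groups lay above scramble and overlapped each other: the log2 difference between siRNA-2 and siRNA-1 was 0.06 (adjusted p = 0.843), which does not show that they were equal. PPM1E, a protein phosphatase that removes phosphate from AMP-activated kinase, stood at 13.6, 13.8 and 13.7 CPM in siRNA-2, at 11.7, 12.0 and 12.9 CPM in siRNA-1, and at 4.86, 4.60 and 4.48 CPM in scramble (log2 fold change 1.57). SLC44A5, a choline transporter-like protein, stood at 25.7, 23.2 and 24.3 CPM in siRNA-2, at 10.7, 10.5 and 8.67 CPM in siRNA-1, and at 8.28, 5.70 and 7.21 CPM in scramble. Here siRNA-2 stood apart from siRNA-1 as well (adjusted p = 4.4e-09), with log2 fold changes against scramble of 1.79 for siRNA-2 and 0.50 for siRNA-1. SULT1E1, which adds sulfate to oestrogens, rose by a log2 fold change of 2.25. The same ranking also held GADL1, NCMAP, DNAAF3, FRMPD4, VSTM4 and PPFIA2, with log2 fold changes of 1.47 to 1.78. PPFIA2 is a scaffold of presynaptic sites and DNAAF3 an assembly factor of ciliary dynein.

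CASQ2, the calcium buffer of the cardiac sarcoplasmic reticulum, belonged to the same set. It stood at 9.68, 10.2 and 9.29 CPM in siRNA-2, at 6.48, 4.73 and 4.45 CPM in siRNA-1, and at 3.08, 2.40 and 2.41 CPM in scramble. The groups did not overlap, with a log2 fold change of 1.91 ± 0.13 (adjusted p = 2.26e-10). CASQ1, the form of skeletal muscle, stood at 85.6, 82.8 and 77.9 CPM in siRNA-2, at 51.6, 44.0 and 35.4 CPM in siRNA-1, and at 45.4, 34.6 and 40.9 CPM in scramble. CASQ1 rose by 1.03 on the log2 scale (adjusted p = 1.05e-07) and exceeded siRNA-1 by 0.91 (adjusted p = 1.56e-06).

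**Figure D2:**
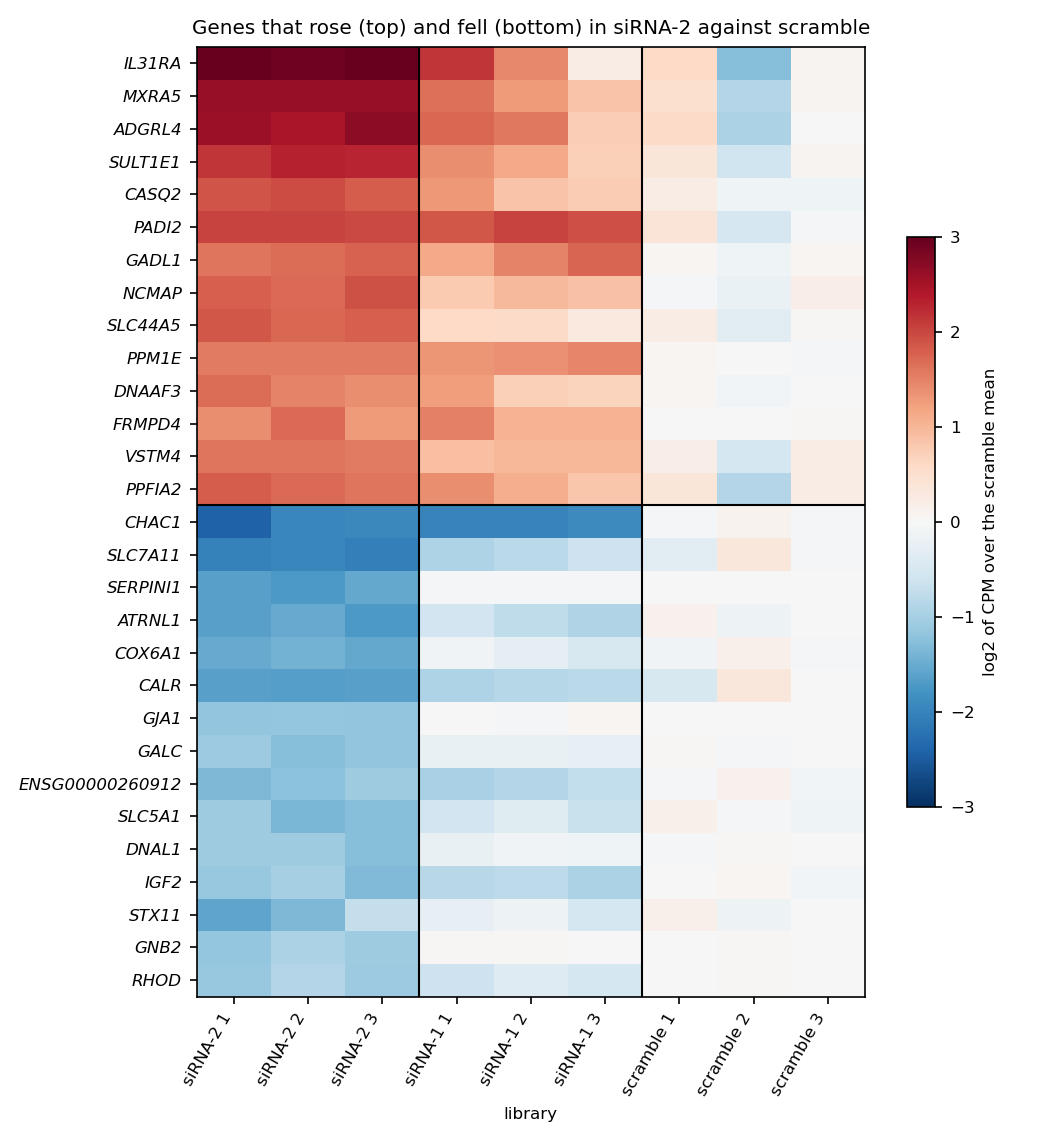
Heat map of 14 of the 15 genes that rose (top) and the 15 that fell (bottom) by the widest margin over all scramble libraries; columns are the libraries of siRNA-2, siRNA-1 and scramble and colour is log2 CPM minus the scramble mean. The siRNA-2 columns have 1 colour direction throughout each block, which the choice of genes set in advance. The siRNA-1 columns match it for PADI2 and CHAC1 and stay near the scramble mean for SERPINI1, GJA1 and GNB2.

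The 15 strongest falls included known targets of ATF4 as well as genes that were not called in siRNA-1. CHAC1, which breaks down glutathione and is a target of the transcription factor ATF4, stood at 0.938, 1.31 and 1.33 CPM in siRNA-2, at 1.27, 1.27 and 1.34 CPM in siRNA-1, and at 4.89, 5.49 and 4.84 CPM in scramble. Both siRNA groups were low, and the log2 fold change of siRNA-2 was -2.10 ± 0.17 (adjusted p = 4.06e-09). SLC7A11, the cystine importer, stood at 4.00, 4.22 and 3.97 CPM in siRNA-2, at 8.65, 9.26 and 10.7 CPM in siRNA-1, and at 12.9, 20.5 and 15.6 CPM in scramble, and it fell by 2.01 on the log2 scale. IGF2, the fetal growth factor, stood at 191.4, 210.5 and 167.8 CPM in siRNA-2, at 235.2, 243.9 and 218.5 CPM in siRNA-1, and at 425.2, 437.6 and 392.9 CPM in scramble. For IGF2 both siRNA groups lay below scramble, with a log2 fold change of -1.14 for siRNA-2 and -0.85 for siRNA-1.

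SERPINI1, neuroserpin, an inhibitor of tissue plasminogen activator, stood at 41.0, 38.5 and 43.5 CPM in siRNA-2, at 121.6, 121.4 and 121.7 CPM in siRNA-1, and at 127.2, 127.2 and 126.2 CPM in scramble. Only siRNA-2 was low among these groups. The fall was 67.7%, a log2 fold change of -1.63 ± 0.09 (adjusted p = 2.56e-11), and the log2 difference from siRNA-1 was -1.57 (adjusted p = 9.7e-11). GJA1, connexin 43, the main gap junction protein of working heart muscle, stood at 66.2, 66.5 and 65.9 CPM in siRNA-2, at 147.4, 145.9 and 155.8 CPM in siRNA-1, and at 147.9, 149.9 and 150.6 CPM in scramble. Its libraries differed little within each group, siRNA-1 overlapped scramble, and siRNA-2 lay apart at a log2 fold change of -1.18 ± 0.08 (adjusted p = 1.52e-10). GNB2, a beta subunit of heterotrimeric G proteins, stood at 23.5, 26.9 and 24.9 CPM in siRNA-2, at 53.5, 53.1 and 51.5 CPM in siRNA-1, and at 51.4, 53.3 and 51.9 CPM in scramble (log2 fold change -1.06).

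COX6A1, a subunit of cytochrome c oxidase, and GALC, a lysosomal galactosidase, were also far below scramble in siRNA-2. COX6A1 stood at 18.3, 19.5 and 17.97 CPM in siRNA-2, at 48.0, 42.5 and 37.0 CPM in siRNA-1, and at 48.0, 57.4 and 50.1 CPM in scramble, a log2 fold change of -1.48. GALC stood at 36.8, 32.4 and 34.3 CPM in siRNA-2, at 66.5, 67.0 and 66.4 CPM in siRNA-1, and at 80.4, 76.9 and 77.5 CPM in scramble, a log2 fold change of -1.18. DNAL1, a light chain of axonemal dynein, fell by 1.13 on the log2 scale. The same ranking held SLC5A1, the sodium-glucose cotransporter, STX11, a syntaxin, and RHOD, a small GTPase, with log2 fold changes of -1.22, -1.18 and -1.02. It also held ENSG00000260912, a transcript annotated as overlapping another gene in the same sense, at -1.22; its reads cannot be told apart from those of its partner. COX6A1, like CYCS and PGAM1 below, has near-identical processed copies elsewhere in the genome, between which the counting may have divided reads.

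Several of these fallen transcripts share a short stretch of sequence in the 3′ UTR. An siRNA pairs in full with its target, and its guide strand can also lower transcripts that pair only with its seed, bases 2 to 8, often at a site followed by an A. All 15936 words of 7 letters found in at least 100 of 11742 3′ UTRs (GENCODE release 29) were ranked by a score, lowest first. The score took the mean log2 difference of the genes that held a word, minus that of all genes, in units of the SD. It was multiplied by the square root of the number of 3′ UTRs with the word, so that common words weighed more. AACTGGT and ACTGGTA came first and second for siRNA-2 minus siRNA-1, the difference by which they were chosen. They were also first and second for siRNA-2 minus scramble, which shares the siRNA-2 libraries and so is not independent. For siRNA-1 minus scramble the same words ranked 6844 and 4252. The choice also used the siRNA-1 libraries, so these ranks are not independent of it either. None of 2545 mature human miRNAs in RefSeq had bases 2 to 8 complementary to AACTGGT. No source used here gives the siRNA sequences, so the words could not be set against the guide strand, and no p-value is given for words chosen by the measurements.

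The windows below, of 30 bases each, are shown because these genes fell in siRNA-2 and carry the joined word of 8 letters, which is in capitals. All lie in the 3′ UTR and read 5′ to 3′ on the transcript's strand. They come from SERPINI1 (chr3:167825365-167825394), CALR (chr19:12944098-12944127), GJA1 (chr6:121449262-121449291), DNAL1 (chr14:73696105-73696134), ATRN (chr20:3647469-3647498) and MGRN1 (chr16:4689099-4689128), all on the plus strand of GRCh38.
SERPINI1: attatgtttgcAACTGGTAtatatttagga
CALR: ttttttttttaAACTGGTAttttatctttg
GJA1: aattttgcagtAACTGGTAttcttgggttt
DNAL1: tttctccccaaAACTGGTAatgccaacctt
ATRN: ctttgaatgtaAACTGGTAtaataggtagt
MGRN1: gatatatttgtAACTGGTAcaagatgaagg
The 3′ UTR of ATRNL1 itself held neither word. Its transcript of 8479 bases held ACTGGTA at base 151 and AACTGGT at base 723, both ahead of the 3′ UTR. Neither of these sites is the 8-letter word, and whether siRNA-2 pairs with them was not tested. The second of these is shown for the target gene (chr10:115127683-115127712, plus strand, with AACTGGT and the letter after it in capitals).
ATRNL1: tgctgcgtataatctAACTGGTTtcaacat

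Of the 381 genes with AACTGGTA in the 3′ UTR, 154 fell in siRNA-2 (40.4%) and 25 rose (6.56%), with 71 falls that held against each scramble library. Their median log2 fold change was -0.16, and -0.17 against each scramble library alone. In siRNA-1 the median of these genes was 0.005 and 19 of them fell (4.99%), compared with 0.002 and 777 (6.62%) over all 11742 genes. Of the 1622 genes with only a 7-letter word, 429 fell in siRNA-2 (26.4%) at a median of -0.08. Of the 9739 with neither, 1188 fell (12.2%) at a median of -0.001. Over all 11742 genes, 1771 fell (15.1%) at a median of -0.01.

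Genes with the word also had longer 3′ UTRs, with a median of 3813 bases against 1277 bases for genes with neither word. Within 3′ UTRs of 3000 to 5000 bases, 32 of 108 genes with the word fell (29.6%, median -0.12), compared with 143 of 1207 with neither (11.8%, median 0.03). The share that fell was thus smaller for the word within this length range than over all lengths. Of the 455 genes with the reverse complement TACCAGTT, 92 fell (20.2%) at a median of -0.04. Since the word was chosen by siRNA-2 minus siRNA-1, its shares in both siRNA groups are a description. Those of falls in siRNA-2 are bound to exceed those of most other words. Of the 14 strongest falls with a 3′ UTR, 4 held the 8-letter word and 9 held any of the words. The words were also read in some of the falls described below, which were picked without a rule. Others described below, such as HSPA5, DDIT3 and ATP2A2, are left out here, so no share follows from these genes. CNN3, ERBB4, CRHBP and ADAMTS5 held the 8-letter word, and CYCS, MEF2C, DUSP5, LAMP1, CTSL, GSS and COL2A1 only a 7-letter word. ATP5F1B, PGAM1, MYBPHL and ACP3 held none of them. How far pairing with the guide strand accounts for any of these falls, ATRN and MGRN1 included, was not tested.

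**Figure D3:**
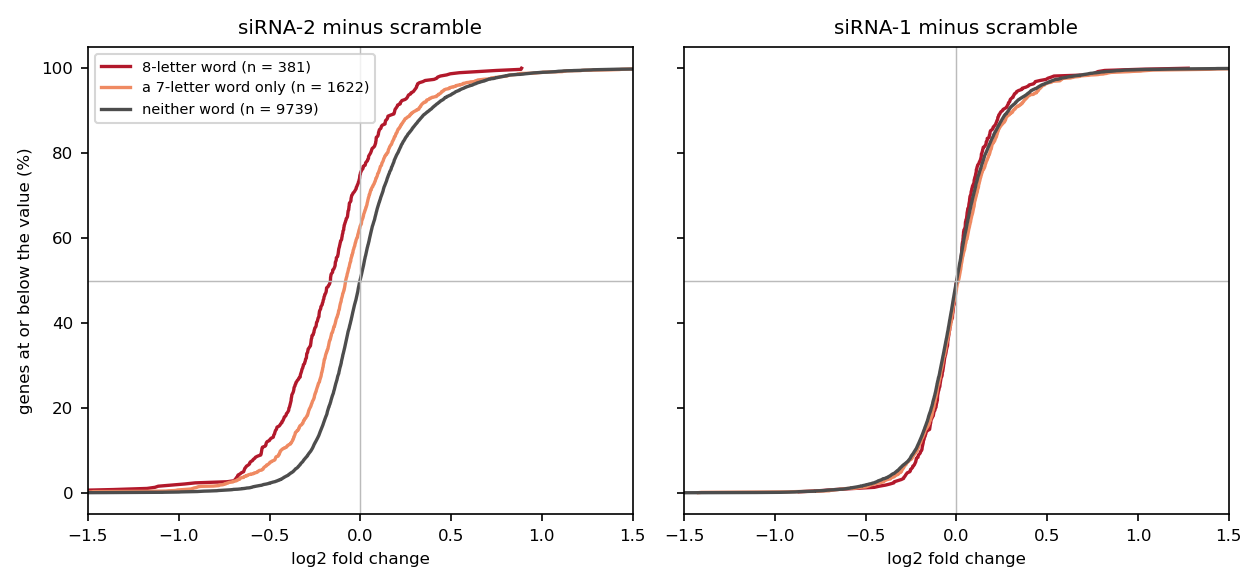
Share of genes at or below each log2 fold change (vertical axis, percent) for siRNA-2 minus scramble (left) and siRNA-1 minus scramble (right; both use the same scramble libraries), for 381 genes with AACTGGTA in the 3′ UTR, 1622 with only a 7-letter word and 9739 with neither. On the left the curve of the 8-letter word lies toward lower values (median -0.16) and on the right the curves overlie one another near 0. The words were chosen by siRNA-2 minus siRNA-1, so neither panel is independent of the choice.

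Of the 41 lists described, the lowest median was that of the unfolded protein response, the programme by which the endoplasmic reticulum (ER) raises its chaperones when unfolded protein accumulates. Of its 27 genes tested, 21 fell, none rose and 11 falls held against each scramble library, at a median log2 fold change of -0.71 against 0.003 over all genes. HSPA5 (BiP), the main Hsp70 of the ER, stood at 545, 538.6 and 576.5 CPM in siRNA-2, at 522.6, 585.4 and 639.9 CPM in siRNA-1, and at 905, 2193 and 1583 CPM in scramble. The scramble libraries spread over a wider range than the distance of their mean from siRNA-2, and library 1 was the lowest of them. The log2 fold change was -1.50 ± 0.18 (adjusted p = 1.09e-06), and -0.71, -1.99 and -1.51 against scramble library 1, 2 or 3 alone. The size of the fall thus depends on the control library, and its direction did not among these 3.

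HSP90B1 (GRP94) followed the same order, with 511, 497.6 and 543.2 CPM in siRNA-2, 490, 530.1 and 576.9 CPM in siRNA-1, and 787.2, 2062 and 1446 CPM in scramble. Its log2 fold change was -1.47. SDF2L1, a cofactor of HSPA5, stood at 2.56, 3.24 and 3.00 CPM in siRNA-2 and at 5.02, 15.5 and 9.83 CPM in scramble. CALR, calreticulin, the calcium-binding chaperone of glycoproteins, stood at 211.7, 207.1 and 210.1 CPM in siRNA-2, at 342.1, 360.5 and 374.9 CPM in siRNA-1, and at 471.5, 829.2 and 662.7 CPM in scramble. CALR alone of the list was called lower in siRNA-2 than in siRNA-1, by -0.78 on the log2 scale (adjusted p = 9.06e-05), and it is one of the genes shown above with the 8-letter word. Its membrane-bound relative CANX, calnexin, stood at 973.7, 959.2 and 1012 CPM in siRNA-2, at 965.2, 981.7 and 1024 CPM in siRNA-1, and at 1260, 1836 and 1543 CPM in scramble.

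HERPUD1 and HYOU1, of ER-associated degradation and ER folding, fell by 1.40 and 1.34 on the log2 scale, and MANF, a secreted ER stress protein, fell by 1.42. These 3 held against each scramble library. The summed level of the list was 3601 to 3817 CPM in the siRNA-2 libraries and 5058, 10140 and 7679 CPM in scramble libraries 1, 2 and 3. With scramble library 1 as sole control 11 members fell and the median was -0.31; with library 2 it was 24 and -1.12, and with library 3 it was 22 and -0.74. Members that fell without holding against every scramble library included XBP1, the transcription factor of the pathway (log2 fold change -0.71), and CRELD2 (-0.64), which was at 0.09 against scramble library 1 alone. Relative to siRNA-1 none of the 27 was higher and only CALR was lower.

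Promoters of this list were read for the ER stress response element, a textbook motif spelled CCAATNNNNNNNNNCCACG and searched on both strands from 250 bases before to 50 bases after each gene's start (RefSeq, GRCh38.p14). It occurred in 14 of the 13782 promoters of genes tested (0.102%) and in 6 of 24 promoters of the list. Of the 14 genes with a match, 9 fell, none rose and 5 were not called, while of all 13782 genes 11.5% fell. Those that fell were HSPA5, HSP90B1, CALR, CANX, XBP1 and CRELD2 of the list, and ERO1B, SERP1 and FICD outside it. Of these falls, those of HSPA5, HSP90B1, CALR and CANX held against each scramble library and the others did not. The members of the list are already counted among its falls above. A match from each of the 3 genes with the largest falls is shown with the motif in capitals, read on the strand that carries it. HSP90B1 held 2 matches, of which the first is shown. The matches come from HSPA5 (chr9:125241381-125241419, minus strand), HSP90B1 (chr12:103930206-103930244, plus strand) and CALR (chr19:12938374-12938412, minus strand).
HSPA5: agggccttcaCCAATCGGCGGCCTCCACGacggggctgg
HSP90B1: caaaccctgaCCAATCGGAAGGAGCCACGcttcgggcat
CALR: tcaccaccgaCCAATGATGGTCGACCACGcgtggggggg
A match describes the letters in this window and does not show that a factor was bound.

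**Figure D4:**
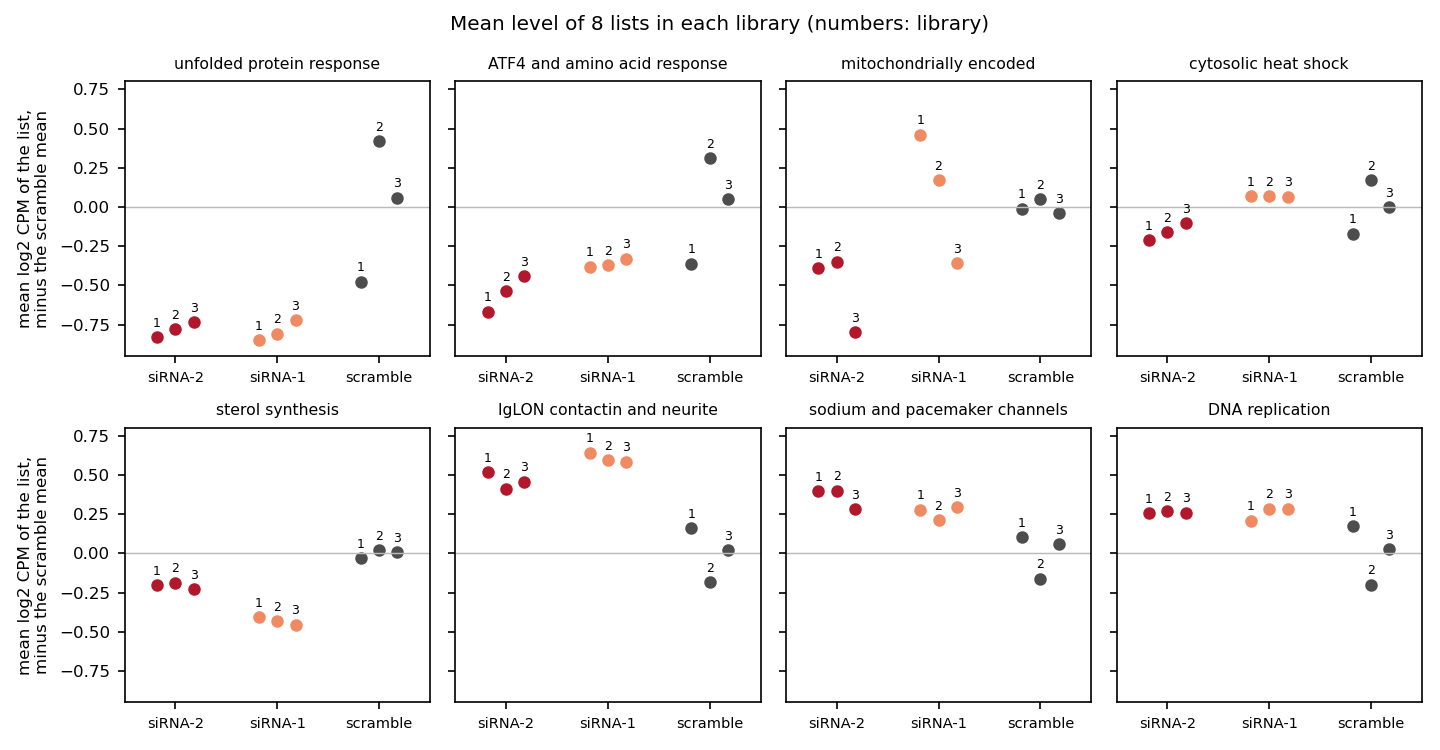
Mean log2 CPM of 8 gene lists in each library, minus the scramble mean of that list (vertical axis); points are libraries, numbered, in siRNA-2, siRNA-1 and scramble. For the unfolded protein response and the ATF4 list scramble library 1 lies closest to the siRNA libraries and library 2 farthest, whereas the sterol list places the 3 scramble libraries together above both siRNA groups.

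The ATF4 and amino acid response, which raises amino acid import and synthesis, showed fewer falls that held. Of 37 genes tested, 26 fell and 3 rose, but only 4 falls held against each scramble library. The median log2 fold change was -0.50, and -0.04, -0.86 and -0.51 against scramble library 1, 2 or 3 alone. DDIT3 (CHOP), a transcription factor induced by stress, stood at 8.03, 8.79 and 8.94 CPM in siRNA-2, at 9.88, 8.92 and 8.98 CPM in siRNA-1, and at 14.5, 33.3 and 23.6 CPM in scramble (log2 fold change -1.48). ASNS, asparagine synthetase, stood at 0.571, 0.814 and 0.918 CPM in siRNA-2, at 0.567, 0.827 and 0.780 CPM in siRNA-1, and at 1.65, 1.93 and 1.93 CPM in scramble (log2 fold change -1.28). Both held, together with CHAC1 and SLC7A11 above. ALDH1L2, a mitochondrial folate enzyme, had 2.45, 2.62 and 2.60 CPM in siRNA-2 and 3.43, 11.5 and 7.25 CPM in scramble, so that its log2 fold change of -1.54 did not hold against library 1. TRIB3, a pseudokinase induced by ATF4, was at -0.62 overall and at 0.17 against scramble library 1 alone. The letters TGATGNAA of the textbook amino acid response element, searched on both strands, were in 7 of 31 promoters of the list and in 281 of 13782 promoters tested (2.04%). Within the list they were in 5 of 23 promoters of members that fell and in 2 of the other 8. Of the 281 genes with the letters, 37 fell (13.2%) and 29 rose (10.3%), compared with 11.5% and 12.5% of all 13782.

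Of 22 genes of glutathione and thiol redox tested, 7 fell, 1 rose and 4 falls held. GSS, glutathione synthetase, stood at 20.8, 22.1 and 19.4 CPM in siRNA-2, at 35.4, 34.7 and 34.3 CPM in siRNA-1, and at 36.7, 30.8 and 32.5 CPM in scramble. It was low in siRNA-2 only among these groups, at a log2 difference of -0.74 from siRNA-1 (adjusted p = 2.92e-07). TXNIP, the inhibitor of thioredoxin that cells raise with glucose, was the gene that rose, with 9.49, 9.38 and 10.6 CPM in siRNA-2 and 7.25, 4.51 and 4.96 CPM in scramble (log2 fold change 0.84). Its rise did not hold against scramble library 1. Of 22 cytosolic heat shock genes, 8 fell, 1 rose and 1 fall held, at a median of -0.20. HSP90AA1, the inducible Hsp90, had 1636, 1619 and 1775 CPM in siRNA-2, 2291, 2488 and 2702 CPM in siRNA-1, and 1741, 2750 and 2280 CPM in scramble, where siRNA-2 and scramble overlapped. Set against siRNA-1, 10 of the 22 were lower in siRNA-2 and none was higher.

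Of 26 targets of p53, the transcription factor of DNA damage, 15 fell and 1 rose, and 1 fall held. CDKN1A (p21), the brake on cyclin kinases, stood at 254.9, 296.9 and 308.8 CPM in siRNA-2, at 262.5, 285.5 and 294.5 CPM in siRNA-1, and at 358.5, 452.5 and 397.4 CPM in scramble (log2 fold change -0.49). MDM2, the ubiquitin ligase of p53, was at -0.44. Neither CDKN1A nor MDM2 held against each scramble library, although their siRNA-2 values all lay below the scramble values. The median of the list was -0.26, and -0.11, -0.32 and -0.28 against scramble library 1, 2 or 3 alone.

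Among 24 genes of sterol synthesis, 12 fell and 2 rose, with 4 falls and both rises holding, at a median of -0.23. This list depended little on the control library, with medians of -0.21, -0.25 and -0.24. MSMO1, a demethylase of the pathway, stood at 58.0, 54.2 and 56.5 CPM in siRNA-2, at 52.7, 50.3 and 50.6 CPM in siRNA-1, and at 93.0, 96.0 and 95.7 CPM in scramble (log2 fold change -0.76, adjusted p = 5.63e-07). SC5D, a desaturase of the pathway, went the other way, with 150.9, 146 and 151.7 CPM in siRNA-2, 102.7, 96.5 and 92.2 CPM in siRNA-1, and 98.9, 92.9 and 93.7 CPM in scramble. Its siRNA-2 libraries lay above all the others, at a log2 fold change of 0.65 (adjusted p = 9.48e-06), and exceeded siRNA-1 by 0.62 on the log2 scale. STARD4, which carries cholesterol between membranes, and HMGCS1, which starts the pathway, fell by 0.73 and 0.45 on the log2 scale, and both held. In all, 9 of the 24 were higher in siRNA-2 than in siRNA-1 and 2 were lower.

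Of 16 fatty acid synthesis genes, 7 fell and 1 rose. SCD, stearoyl-CoA desaturase, stood at 763, 798.2 and 839.6 CPM in siRNA-2, at 906.3, 936 and 961.8 CPM in siRNA-1, and at 1088, 1727 and 1434 CPM in scramble (log2 fold change -0.82). Its paralog SCD5 moved in the opposite direction, with 64.0, 66.6 and 66.9 CPM in siRNA-2, 44.2, 39.6 and 40.7 CPM in siRNA-1, and 44.4, 29.03 and 35.0 CPM in scramble (log2 fold change 0.87). Both held against each scramble library. SREBF1, the transcription factor of lipid synthesis, and ELOVL6, a fatty acid elongase, fell by 0.49 and 0.53 on the log2 scale. Of 28 fatty acid oxidation genes 4 rose and 4 fell, and ACADL, a dehydrogenase of the pathway, rose by 1.41.

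Of the 13 protein-coding genes of the mitochondrial genome, 9 fell and none rose, at a median of -0.51. None of these falls held against each scramble library, although the medians against library 1, 2 or 3 alone were -0.48, -0.58 and -0.48. MT-CO2, a core subunit of cytochrome c oxidase, stood at 4480, 4385 and 3280 CPM in siRNA-2, at 7030, 6341 and 4327 CPM in siRNA-1, and at 5409, 5987 and 5656 CPM in scramble. The siRNA-2 values lay below scramble, while siRNA-1 spread to both sides of it. The log2 fold change was -0.49 (adjusted p = 0.0166). The whole share of counts from the mitochondrial genome was 5.26%, 5.31% and 4.26% in siRNA-2, 7.79%, 6.97% and 5.32% in siRNA-1, and 6.33%, 6.79% and 6.32% in scramble. This share is also read as a sign of RNA or cell quality, and its part in the result was not tested. Relative to siRNA-1, 12 of the 13 were lower in siRNA-2.

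Of 40 nuclear genes of the respiratory chain, 9 fell and none rose, at a median of -0.13, and 2 falls held. ATP5F1B, the catalytic subunit of ATP synthase, stood at 881.6, 921.2 and 955.2 CPM in siRNA-2, at 1343, 1292 and 1251 CPM in siRNA-1, and at 1314, 1409 and 1397 CPM in scramble (log2 fold change -0.58). CYCS, cytochrome c, stood at 232.7, 235.5 and 250.2 CPM in siRNA-2, at 424.7, 376.3 and 383.1 CPM in siRNA-1, and at 390.6, 409.9 and 410.3 CPM in scramble (log2 fold change -0.75). For both, siRNA-2 lay below the other groups, which overlapped. Of 25 glycolytic genes, 8 fell and 2 rose, at a median of -0.14. PGAM1, phosphoglycerate mutase, stood at 55.4, 54.9 and 55.1 CPM in siRNA-2, at 75.0, 69.7 and 70.1 CPM in siRNA-1, and at 94.7, 99.2 and 97.6 CPM in scramble (log2 fold change -0.82). Of 40 cytosolic ribosomal protein genes, 5 fell and none rose, at a median of -0.08, a shift of the size that the scaling moves.

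In the sarcomere, the contractile unit of muscle, the ventricular myosins MYH7 and MYL2 were higher. MYH7, the slow beta myosin heavy chain of ventricle, stood at 7476, 7658 and 7429 CPM in siRNA-2, at 6373, 5998 and 5439 CPM in siRNA-1, and at 4454, 4008 and 4257 CPM in scramble. The groups did not overlap, and the log2 fold change was 0.83 ± 0.08 (adjusted p = 8.82e-08). MYH6, the atrial alpha heavy chain, was at -0.24 (adjusted p = 0.141) and was not called, with 7203 to 8513 CPM in siRNA-2 and a lowest scramble value of 7258 CPM. That depended on the control libraries. MYH6 was at -0.39 without scramble library 2 (adjusted p = 0.00237, edgeR quasi-likelihood test) and at -0.07 without library 1. MYL2, the ventricular light chain, stood at 1892, 1868 and 1908 CPM in siRNA-2, at 1830, 1557 and 1266 CPM in siRNA-1, and at 1195, 1069 and 1134 CPM in scramble (log2 fold change 0.74). MYOM3, a myomesin of the M-band, had 1.66, 1.92 and 1.74 CPM in siRNA-2 and 0.543, 0.264 and 0.499 CPM in scramble (log2 fold change 2.01).

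As lists, these changes were mixed. Of 15 genes of the thick filament and M-band 5 rose and 2 fell, of 16 of the thin filament 6 rose and 3 fell, and of 22 of the Z-disc and stretch sensing 7 rose and 1 fell. Their medians were 0.12, 0.05 and 0.15. Against scramble library 1 alone they were -0.004, -0.13 and -0.06, and against library 2 alone 0.29, 0.36 and 0.35. Most calls in the thin filament and Z-disc lists did not hold against each scramble library. MYLK3, the kinase of the cardiac light chain, fell, with 282.9, 265.5 and 265.5 CPM in siRNA-2, 334.6, 353.4 and 363.8 CPM in siRNA-1, and 479, 388.4 and 429.2 CPM in scramble (log2 fold change -0.67). ACTA1, the skeletal alpha actin found in fetal and loaded heart, had 408.1, 486.4 and 520.2 CPM in siRNA-2, 404.2, 342.8 and 256.6 CPM in siRNA-1, and 256.1, 297 and 275.8 CPM in scramble (log2 fold change 0.77). TNNI3, the mature cardiac troponin I, rose by 0.47 without holding against each scramble library. ACTN3, the alpha-actinin of fast skeletal fibres, had 45.1, 47.4 and 44.5 CPM in siRNA-2, 28.6, 31.4 and 33.5 CPM in siRNA-1, and 19.2, 20.0 and 19.4 CPM in scramble, with no overlap among the groups (log2 fold change 1.23).

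At the Z-disc and intercalated disc, XIRP2, an actin-binding Xin protein, had 22.9, 21.1 and 22.2 CPM in siRNA-2, 45.0, 31.8 and 16.2 CPM in siRNA-1, and 8.93, 2.38 and 6.24 CPM in scramble. The siRNA-1 libraries spread to both sides of siRNA-2, and all lay above scramble (log2 fold change of siRNA-2 1.94). NRAP, which links actin to the disc, rose by 1.03, and PDLIM3, a PDZ and LIM protein of the Z-disc, rose by 0.90. Both held against each scramble library.

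Of 30 calcium handling genes, 4 rose and 6 fell, of which 2 and 4 held, at a median of -0.09. ATP2A2 (SERCA2), the pump that refills the sarcoplasmic reticulum, stood at 1871, 1834 and 1888 CPM in siRNA-2, at 1890, 1919 and 2018 CPM in siRNA-1, and at 2492, 2737 and 2670 CPM in scramble. Both siRNA groups lay below scramble, and the log2 fold change of siRNA-2 was -0.50 (adjusted p = 1.84e-05). The calsequestrins CASQ1 and CASQ2, described above, were the members that rose and held. RYR2, the calcium release channel, was at 0.13 (adjusted p = 0.201) and was not called.

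Among 18 sodium and pacemaker channel genes, 7 rose and none fell, and 4 rises held, at a median of 0.26. SCN3B, an auxiliary sodium channel subunit, stood at 10.6, 11.5 and 11.5 CPM in siRNA-2, at 7.69, 7.24 and 6.71 CPM in siRNA-1, and at 4.41, 5.74 and 4.34 CPM in scramble (log2 fold change 1.21). SCN8A, a pore subunit best known from neurons, had 9.30, 7.81 and 6.28 CPM in siRNA-2, 7.16, 7.63 and 8.85 CPM in siRNA-1, and 4.89, 3.21 and 4.28 CPM in scramble (log2 fold change 0.93). HCN2, a pacemaker channel, rose by 0.62. HCN4, the pacemaker channel of the sinus node, was at a log2 fold change of 0.01 and was not called.

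Of 23 potassium channel genes 7 rose and 2 fell. KCNJ8, the pore of an ATP-sensitive channel, stood at 20.8, 20.9 and 20.8 CPM in siRNA-2, at 18.7, 15.6 and 12.6 CPM in siRNA-1, and at 9.84, 7.79 and 9.09 CPM in scramble (log2 fold change 1.23, adjusted p = 3.48e-08). KCNK3 (TASK-1), a background channel of atrial muscle, had 9.08, 10.9 and 10.7 CPM in siRNA-2, 8.41, 6.62 and 4.75 CPM in siRNA-1, and 4.45, 5.09 and 5.28 CPM in scramble (log2 fold change 1.04). Both held against each scramble library. Of 19 connexin and desmosome genes, 5 rose and 5 fell, with GJA1 the fall described above. GJA5 (connexin 40), the connexin of atrial muscle, had 12.4, 12.8 and 13.5 CPM in siRNA-2 and 15.8, 9.59 and 12.2 CPM in scramble, which overlapped (log2 fold change 0.05).

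Genes of atrial identity gave no common direction. Of 20 tested, 3 rose, 2 fell and 15 were not called, at a median of 0.03, and 2 falls held. NPPA, the atrial natriuretic peptide, stood at 38.1, 45.1 and 41.9 CPM in siRNA-2, at 50.6, 40.5 and 31.8 CPM in siRNA-1, and at 70.0, 59.8 and 59.5 CPM in scramble (log2 fold change -0.60, adjusted p = 0.000383). MYBPHL, a myosin-binding protein found in atrium, had 5.504, 4.71 and 5.75 CPM in siRNA-2, 8.47, 10.0 and 8.65 CPM in siRNA-1, and 9.43, 8.58 and 8.38 CPM in scramble (log2 fold change -0.72). The atrial light chain MYL7 and the atrial fate regulator NR2F2 were at -0.07 and 0.13 and were not called. MYL4, the other atrial light chain, was called at 0.44 but was at 0.05 against scramble library 1 alone.

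Of 15 ventricular identity genes, 6 rose and 2 fell, at a median of 0.16, MYH7 and MYL2 among those that rose. Of 24 cardiac transcription factors 5 rose and 2 fell. MEF2C, a regulator of muscle genes, stood at 69.3, 64.8 and 66.0 CPM in siRNA-2, at 101.6, 101.3 and 104.1 CPM in siRNA-1, and at 102.0, 95.5 and 98.6 CPM in scramble. It was low in siRNA-2 only among these groups, at a log2 fold change of -0.57 (adjusted p = 2.25e-06) and a log2 difference of -0.62 from siRNA-1 (adjusted p = 1.78e-06). HOPX, a homeodomain cofactor of maturing heart muscle, rose by 0.71. TBX5 was at -0.17 (adjusted p = 0.146) and was not called.

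Smooth muscle genes were higher in part. Of 15 contractile genes of that type, 8 rose and 1 fell, at a median of 0.28, and 2 rises held. CNN1 (calponin 1) stood at 298.4, 340.8 and 367.9 CPM in siRNA-2, at 260.1, 222.7 and 176.5 CPM in siRNA-1, and at 179.6, 178.9 and 178.3 CPM in scramble (log2 fold change 0.91). Its paralog CNN3 fell, with 65.7, 64.8 and 71.8 CPM in siRNA-2, 104.7, 97.3 and 89.1 CPM in siRNA-1, and 118.7, 90.2 and 105.4 CPM in scramble (log2 fold change -0.64). CNN3 is among the genes with AACTGGTA in the 3′ UTR. Of 10 smooth muscle and pericyte markers, 6 rose, 3 of which held, and none fell. Their summed level was 464.4 to 536 CPM in siRNA-2 and 289.7 to 365.7 CPM in scramble, a large part of it from CNN1. The part that such cells may have in these results was not tested.

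In the extracellular matrix, 11 of 39 genes rose and 7 fell, and most of these calls did not hold against each scramble library. The median was -0.07, 0.38 and 0.17 against scramble library 1, 2 or 3 alone. COL6A2, a chain of the beaded collagen VI, stood at 46.8, 50.0 and 49.9 CPM in siRNA-2, at 31.2, 30.8 and 29.9 CPM in siRNA-1, and at 25.8, 18.7 and 23.2 CPM in scramble (log2 fold change 1.12, adjusted p = 2.37e-09). COL2A1, the collagen of cartilage, fell, with 132.1, 129.5 and 124.1 CPM in siRNA-2, 223.6, 221.2 and 200.7 CPM in siRNA-1, and 328.1, 207.5 and 274.7 CPM in scramble (log2 fold change -1.07). THBS1 (thrombospondin 1), an activator of latent TGF-beta, had 113.0, 120.2 and 131.4 CPM in siRNA-2, 136.4, 127.7 and 132.0 CPM in siRNA-1, and 222.7, 208.7 and 218.5 CPM in scramble (log2 fold change -0.83). These 3 genes did not overlap between siRNA-2 and scramble. Of 24 genes of TGF-beta and BMP signalling 7 rose and 2 fell. CXCL12, a chemokine of the developing heart, had 306.4, 330.1 and 338.4 CPM in siRNA-2, 261.5, 226.7 and 198.6 CPM in siRNA-1, and 150.2, 117.7 and 130.4 CPM in scramble (log2 fold change 1.29).

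In the EGF and ERBB system, through which neuregulin acts on heart muscle, the receptors moved apart. ERBB4, the neuregulin receptor of cardiomyocytes, stood at 122.0, 111.5 and 107.5 CPM in siRNA-2, at 168.6, 172.8 and 177.9 CPM in siRNA-1, and at 217.2, 161.6 and 188.6 CPM in scramble (log2 fold change -0.73). ERBB3, which binds neuregulin but has little kinase activity of its own, stood at 23.6, 24.4 and 25.2 CPM in siRNA-2, at 18.4, 19.1 and 18.7 CPM in siRNA-1, and at 12.0, 12.9 and 12.4 CPM in scramble (log2 fold change 0.97). Both held, and ERBB4 also has the 8-letter word in its 3′ UTR. DUSP5, DUSP6 and ETV5, known targets of ERK signalling, which these receptors activate, fell by 0.64, 0.58 and 0.54 on the log2 scale and held; the 3′ UTR of DUSP5 has a 7-letter word. SPRED2, an inhibitor of the same pathway, fell by 0.27 without holding. The other ERK feedback and target genes of the list, SPRY1, SPRY2, SPRY4, DUSP4, ETV4 and SPRED1, were not called, at log2 fold changes between -0.43 for ETV4 and 0.28 for DUSP4. Of the 24 genes of the list, 5 fell, 4 of which held, 3 rose and 16 were not called, at a median of 0.05.

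Of 28 genes of the IgLON, contactin and neurite list, cell-contact proteins best known from neurons, 13 rose and 1 fell, at a median of 0.43, and 4 rises held. CNTN1, a contactin, stood at 25.6, 24.0 and 24.8 CPM in siRNA-2, at 15.2, 13.5 and 12.99 CPM in siRNA-1, and at 12.5, 8.78 and 10.7 CPM in scramble (log2 fold change 1.22). CNTNAP2, a neurexin relative that partners contactins, rose by 1.49 from a low level, with 1.27 to 1.66 CPM in siRNA-2. Of 25 synaptic vesicle genes, 7 rose, 5 of which held, and 3 fell. SYT1, the calcium sensor of vesicle release, had 6.08, 5.91 and 5.66 CPM in siRNA-2, 4.83, 4.24 and 4.23 CPM in siRNA-1, and 3.24, 2.99 and 2.96 CPM in scramble (log2 fold change 0.95). VAMP2, a vesicle SNARE, fell by 0.59. Among 13 neural markers 5 passed the filter on low counts, of which 1 rose, and SOX1, SOX2, TUBB3, ELAVL4, DCX and NEUROD1 were among those that did not pass it. The marker that rose was NES, nestin, at 0.44. The summed level of the neural markers that passed was 709.3 to 757.1 CPM in siRNA-2 and 440.2 to 648.8 CPM in scramble. Their mean log2 CPM was only 1.53 to 1.90 in siRNA-2 and 1.35 to 1.63 in scramble, so the sum rests on few of them. By that mean the 2 groups overlapped. The part that neural cells may have in these lists was not tested.

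Cell cycle lists depended on the control library. Of 35 DNA replication genes, 15 rose, 3 of which held, and 2 fell, at medians of 0.11, 0.43 and 0.20 against scramble library 1, 2 or 3 alone. CCNE1 (cyclin E1) stood at 16.7, 15.2 and 16.3 CPM in siRNA-2, at 10.98, 11.7 and 11.4 CPM in siRNA-1, and at 10.9, 8.94 and 9.80 CPM in scramble (log2 fold change 0.70). E2F2, a transcription factor of S phase entry, rose by 1.06, and both held. Of 34 mitosis genes, 1 fell and none rose against the 3 scramble libraries. Against library 1 alone 10 of them fell, and against library 2 alone 19 rose, with medians of -0.27 and 0.40. MKI67, the proliferation marker, spread in the same way among the scramble libraries, with 87.1, 81.5 and 77.3 CPM in siRNA-2, 90.5, 95.5 and 91.9 CPM in siRNA-1, and 103.1, 47.7 and 74.9 CPM in scramble. Of 30 replication-dependent histone genes, 3 rose and 2 fell, with medians of -0.19 and 0.68 against library 1 or 2 alone. Histone genes are near-identical copies and most of their mRNAs lack a polyA tail, so their levels also rest on the counting and the library type.

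**Figure D5:**
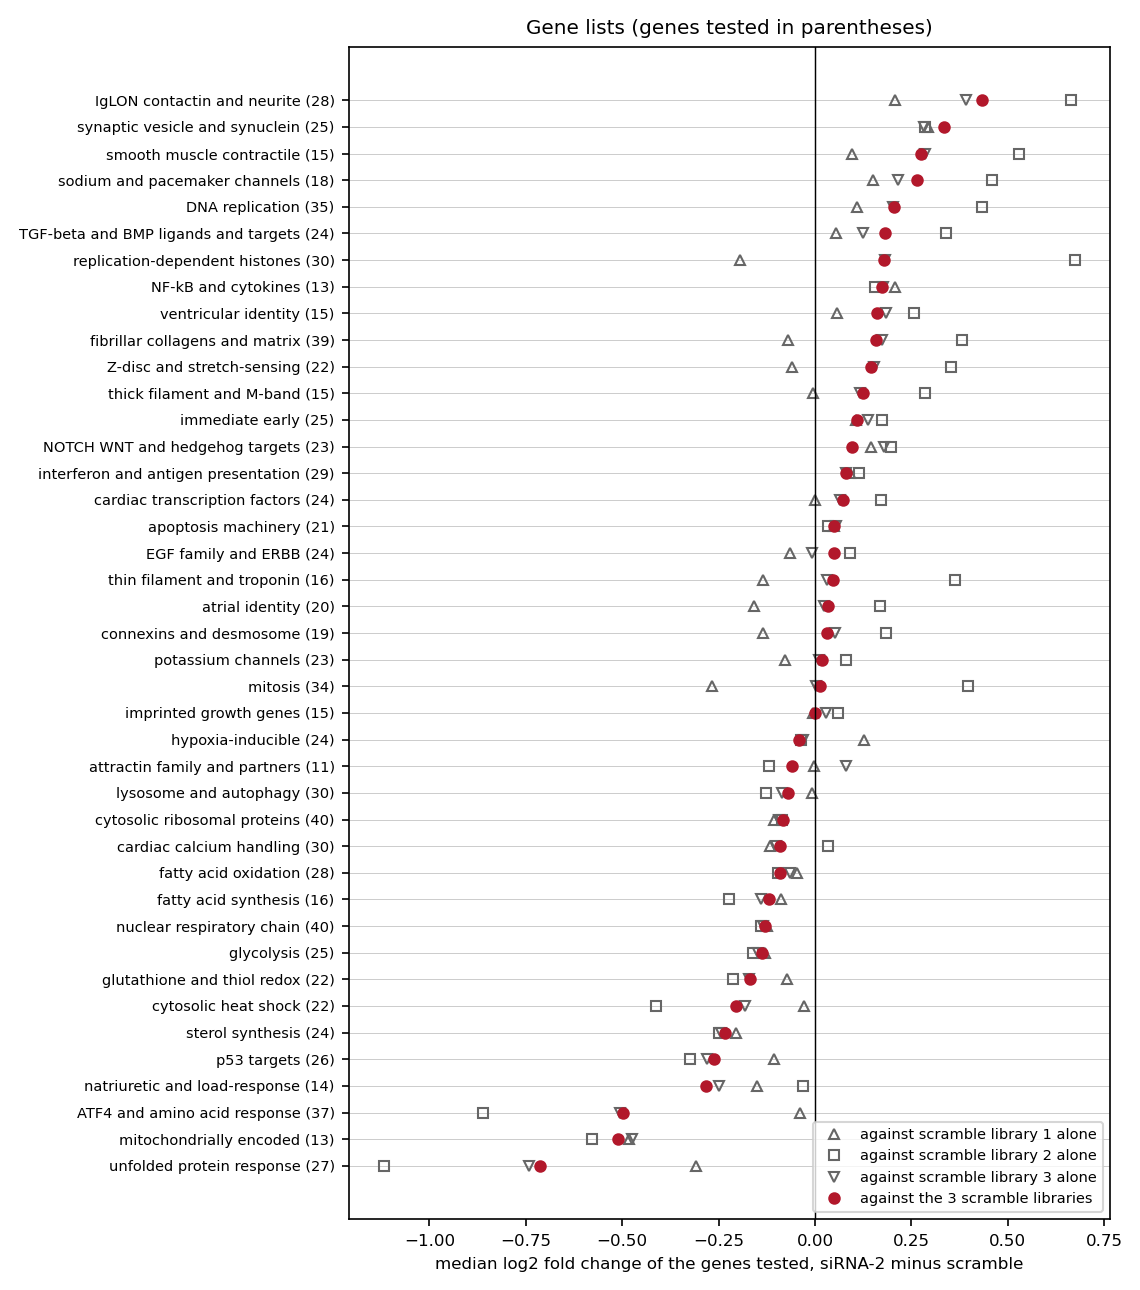
Median log2 fold change of siRNA-2 minus scramble for 41 gene lists (genes tested in parentheses); filled circles use the 3 scramble libraries and open symbols each scramble library alone. The unfolded protein response lies lowest at -0.71 and the IgLON, contactin and neurite list highest at 0.43. Many lists change sign between scramble libraries 1 and 2. Among them are mitosis, histones, thin filament, Z-disc, matrix, atrial identity, connexins and desmosome, potassium channels, calcium handling and the EGF family.

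Most of the remaining lists held calls in both directions, against 9.64% that rose and 8.48% that fell over all genes. Most list members are protein-coding, and such genes were called more often. Among the 11742 protein-coding genes with a 3′ UTR and a mean of at least 2 CPM, 14.4% rose and 15.1% fell. Of 29 interferon and antigen presentation genes 4 rose and 1 fell; MX1, an antiviral GTPase, rose to 1.20, 1.57 and 1.54 CPM in siRNA-2, against 0.499, 0.595 and 0.615 CPM in scramble (adjusted p = 0.000563). In siRNA-1 MX1 had 0.548, 0.672 and 0.671 CPM, so that siRNA-2 alone was high among these groups. Of 25 immediate early genes 6 rose and 1 fell, of 24 hypoxia-inducible genes 5 rose and 4 fell, and of 30 lysosome and autophagy genes 3 rose and 6 fell. Of 13 NF-kB and cytokine genes 2 rose and 1 fell. Of 23 targets of NOTCH, WNT and hedgehog signalling, 2 rose and none fell. Of 21 apoptosis genes, 3 rose and 2 fell, among them HRK, an activator of the mitochondrial pathway (0.81), which held. Lysosomal LAMP1, a membrane protein, and CTSL, a protease, fell by 0.60 and 0.68 on the log2 scale, and of 15 imprinted growth genes, 3 rose and 1 fell (IGF2). Of 14 natriuretic and load-response genes, 2 rose and 3 fell.

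Many markers of other cell types did not pass the filter on low counts. Of 12 fibroblast markers 9 passed the filter on low counts and 3 rose, with summed levels of 225.4 to 240.1 CPM in siRNA-2 and 175 to 239.1 CPM in scramble, which overlapped. Of 13 endothelial markers 5 passed, and PECAM1, CDH5, TIE1, VWF and ERG, which define that type, did not. Of those 5, NFATC1, a transcription factor of endocardium, rose by 0.57 and held, and NPR3, the clearance receptor for natriuretic peptides, fell by 0.62 on the log2 scale. Of 11 epicardial markers 8 passed, 2 rose and 1 fell, with summed levels of 57.7 to 71.8 CPM in siRNA-2 and 55.7 to 62.0 CPM in scramble. Of 10 markers of pluripotent cells 4 passed and 1 rose, the DNA methyltransferase DNMT3B (0.62), with summed levels of 9.50 to 9.85 CPM in siRNA-2 and 5.16 to 8.10 CPM in scramble. Of 14 endodermal markers 10 passed, 2 rose and 1 fell, of 14 skeletal muscle markers 6 passed and 2 rose, and of 10 immune markers 5 passed and 1 rose. All 11 cardiomyocyte markers passed, of which 3 rose and none fell.

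The difference between the reagents was tested directly as siRNA-2 minus siRNA-1, which uses no scramble library. It was called for 2499 genes (10.1%), of which 1117 were higher and 1382 lower in siRNA-2, and it reached 1 on the log2 scale for 188. The comparisons of each siRNA with scramble share the scramble libraries, so their values are given side by side. The genes with the largest differences included SERPINI1, SLC44A5, IL31RA and MXRA5 above, and CRHBP, which binds corticotropin-releasing hormone. CRHBP stood at 13.7, 12.96 and 13.9 CPM in siRNA-2, at 38.2, 33.6 and 31.1 CPM in siRNA-1, and at 48.2, 22.4 and 33.9 CPM in scramble. Its siRNA-2 values were below all others (log2 difference from siRNA-1 -1.34, adjusted p = 3.66e-06), and its 3′ UTR carries AACTGGTA. ACP3, an acid phosphatase, differed by -1.28, and the long noncoding RNA ENSG00000239482 by 1.31.

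A few genes lay on opposite sides of scramble under the 2 reagents. KEL, a zinc endopeptidase and blood group protein, stood at 8.78, 9.41 and 8.36 CPM in siRNA-2, at 2.37, 2.53 and 2.83 CPM in siRNA-1, and at 5.23, 3.80 and 4.54 CPM in scramble. GPR157, an orphan receptor, stood at 19.9, 21.5 and 23.4 CPM in siRNA-2, at 9.06, 8.14 and 8.71 CPM in siRNA-1, and at 9.30, 13.8 and 12.6 CPM in scramble. ADAMTS5, a protease of aggrecan and versican, stood at 7.62, 7.25 and 7.08 CPM in siRNA-2, at 14.8, 18.3 and 21.3 CPM in siRNA-1, and at 9.43, 8.91 and 8.90 CPM in scramble. For KEL and GPR157 siRNA-2 was the highest group and siRNA-1 the lowest, and for ADAMTS5 the order was turned round. ADAMTS5 fell by only 0.31 in siRNA-2 (adjusted p = 0.043), a fall that did not hold against each scramble library, and it has the 8-letter word in its 3′ UTR.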

How the data were processed

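The authors deposited whole-number read counts per gene, unnormalized, for 15 libraries. STAR 2.7.9a, DESeq2 1.30.1 and the build GRCh 38 are named in the submitters' processing notes, with no role given. The sources used here do not give the counting program or its use of strand, so overlapping and antisense genes cannot be told apart. Column names gave a library's group but not its labelled sample, so library numbers follow the columns and pair nothing. Of 59429 rows, 649 without a gene identifier (0.00157% to 0.00437% of counts per library) were dropped, and 58207 of the other 58780 matched a symbol.

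Genes were filtered with filterByExpr by group and scaled with TMM. A quasi-likelihood model of 5 group means over all 15 libraries was fitted in edgeR 4.0.16 (R 4.3.3), with a call at an adjusted p (Benjamini-Hochberg) under 0.05 over 24659 genes. The biological coefficient of variation was 8.24%. Every adjusted p for a gene comes from this test. The script was tested on simulated data. Alternatives were DESeq2 1.42.0, limma 3.58.1 (voom), other scalings and filters, left-out libraries and single controls.

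The members and lists were chosen with earlier results of these data known. Genes were named if called, at a mean of at least 2 CPM and with no overlap between groups, as the 15 rises and 15 falls with the largest smallest difference from a single scramble library. Up to 4 called members per list, members needed for their role, attractin partners and the 10 largest differences from siRNA-1 were named too. Some of the genes that this rule names are not reported here.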

Additional observations from a re-analysis of the deposited data

Results flagged for a closer look

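KEL, GPR157 and ADAMTS5 stood out because siRNA-2 and siRNA-1 were each called against scramble in opposite directions and the difference between them was called as well (edgeR quasi-likelihood test, Benjamini-Hochberg adjusted). For KEL the log2 difference of siRNA-2 minus siRNA-1 was 1.78 (adjusted p = 4.4e-09), with a log2 fold change against scramble of 0.97 for siRNA-2 and -0.80 for siRNA-1. For GPR157 the log2 difference was 1.32 (adjusted p = 1.38e-08), with 0.85 for siRNA-2 and -0.47 for siRNA-1. For ADAMTS5 it was -1.31 (adjusted p = 5.45e-09), with -0.31 for siRNA-2 and 1.00 for siRNA-1. The 2 comparisons with scramble share the scramble libraries, whereas the difference between the reagents uses none of them. In all 3 genes the 3 siRNA-2 libraries lay on 1 side of the 3 siRNA-1 libraries.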

How the results depend on the processing

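The ATRNL1 fall kept its direction and its call in all settings tried, at log2 fold changes of -1.75 to -1.47, and of -1.68 to -1.54 when a library was left out. The number of genes that rose, 2378, was 922 with scramble library 1 as sole control, 1337 with library 3, and 1258 without siRNA-2 library 2 and scramble library 3, a setting chosen after seeing the data because these libraries lay between the others of their group most often. The number that fell, 2092, was 943, 1049 and 965 in the same settings. Leaving out a library gave 1694 to 2532 rises and 1451 to 2123 falls, and 1478 to 1716 genes that differed between siRNA-2 and siRNA-1. That last count, 2499 in all, was 4821 with only these groups fitted and 4488 with limma voom; the cause was not tested. DESeq2 gave 2235 rises, 2197 falls and 2710 differences. Scaling by library size alone gave 3491 rises and 1486 falls. The 30 genes of the widest margin kept direction and call in all 450 alternative values. They were chosen as called genes far from every single scramble library, so this outcome was largely set by the choice. Of 3110 values for the other 210 named results, 2708 kept both, 360 lost the call, 18 gained it and 24 changed sign. With scramble library 1 as sole control the called falls of GDF15, a stress cytokine, TRIB3 and CRELD2 were at 0.11, 0.17 and 0.085. The other changes of sign were in genes not called. In that setting GJA5 was at -0.30, HCN4 at -0.22, MC4R at -0.18, MKI67 at -0.33 (adjusted p = 0.0231) and NR2F2 at -0.074. With scramble library 2 alone MYH6 was at 0.13, MYL7 at 0.17, SPRY1 at 0.10 and SPRY4 at 0.053. Leaving out a library gave -0.022 to 0.45 for DUSP4, -0.10 to 0.24 for GJA5, -0.11 to 0.13 for HCN4, -0.023 to 0.43 for MC4R, -0.11 to 0.42 for MKI67, -0.17 to 0.031 for MYL7 and -0.14 to 0.0044 for SPRY1. Library-size scaling put MYL7 at 0.0061 and SPRY1 at 0.0073, DESeq2 put HCN4 at -0.0036, and leaving out siRNA-2 library 2 and scramble library 3 put it at -0.029. Of 50 list medians, 25, 26 and 6 moved with scramble library 1, 2 or 3 as sole control and 17 with library-size scaling. Depth limits genes near or below 1 CPM. No paired analysis was possible because the columns carry no replicate number that the labels tie to a shared culture or day.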
